A study of Mus musculus with 8 samples.

Results

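The BMP, GDF and TGF-beta pathway module was made up of the protein-coding genes whose mouse symbol names a bone morphogenetic protein (BMP), a growth and differentiation factor (GDF), a TGF-beta, an inhibin or activin subunit, a receptor for these ligands, a Smad or one of the proteins Id1 to Id4, with Tgfbrap1 left out. This rule on symbols matched 56 of the 55416 gene identifiers in the count files, and protein-coding genes number 21627 in the annotation used. By role, 28 encode ligands (3 TGF-betas, 5 activin and inhibin subunits, 10 BMPs and 10 GDFs), 13 encode receptors and coreceptors (7 type I, 4 type II and 2 coreceptors), 8 encode Smads and 4 encode Id proteins. The last 3 carry a pathway name without being ligands or receptors: Bmp1 is a procollagen protease, Bmp2k a kinase and Tgfb1i1 (Hic-5) a focal adhesion protein.

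Lung RNA was sequenced from 8 female C57BL/6 mice (C57BL/6J in the methods) aged 6 to 8 weeks in a study of endotoxin shock and of YW3-56, an inhibitor of the peptidylarginine deiminases, enzymes that turn arginine into citrulline. The 3 control mice (1, 2 and 4) received the solvent DMSO by tail vein and then saline into the peritoneum. The 3 LPS mice (1, 6 and 7) received 35 mg/kg of the bacterial endotoxin lipopolysaccharide (LPS) into the peritoneum. The methods mention no DMSO for them. If none was given, solvent and treatment cannot be told apart in comparisons with these mice. The 2 dual-treated mice (2 and 5) received 10 mg/kg YW3-56 in DMSO, by a route the methods do not give, before the same dose of LPS, and lungs of all 3 groups were taken about 24 h after LPS or saline. No group received YW3-56 without LPS, so its effect on lungs without endotoxin was not measured. In the paper's survival study, median survival was shorter than 24 h with LPS alone and longer with YW3-56 before LPS. The part of survival in the comparisons was not tested.

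Ligands of this superfamily bind pairs of type I and type II receptor kinases, which phosphorylate receptor Smads that enter the nucleus with Smad4 and switch genes on or off. TGF-betas and activins mainly signal through Smad2 and Smad3, and BMPs through Smad1, Smad5 and Smad9, while Smad6, Smad7 and many secreted antagonists restrain the signal and Id proteins are standard BMP targets. In the lung, the receptors Acvrl1 and Bmpr2 are known for keeping the pulmonary endothelium quiescent, and TGF-beta is known for matrix deposition and for the handling of injury by epithelium and fibroblasts.

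Total counts per library ran from 19061949 in control mouse 1 to 20908608 in dual-treated mouse 5, and values are given as CPM, the counts of a gene per library after TMM scaling to a common size. Markers of alveolar type 2 cells, which make surfactant, summed to 36902, 30920 and 38687 CPM in the control mice, 29027, 20673 and 16938 CPM in the LPS mice, and 20036 and 30312 CPM in the dual-treated mice, so every library held the defining RNA of lung. A pair of LPS libraries stood apart from the rest. Squamous epithelium markers, led by Krt13, summed to 0.653, 681 and 1965 CPM in LPS mice 1, 6 and 7, against 0.44, 0.798 and 0.46 CPM in the control mice and 1.5 and 3.34 CPM in the dual-treated mice. Skeletal muscle markers, led by Ckm, summed to 15.4, 155 and 400.0 CPM in LPS mice 1, 6 and 7, 8.17, 17.7 and 12 CPM in the control mice, and 4.08 and 5.53 CPM in the dual-treated mice. Krt4, Krt16, Krt6a, Sprr3 and Crct1 of the first list and Myh4, Myh2 and Pvalb of the second were at 0 in some mice. LPS mice 6 and 7 thus held more of both sets of markers than any other mouse, and the part of that RNA in the results was not tested beyond leaving both libraries out.

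Of the 56 genes, 48 had enough counts to be tested, and the other 8 are given with the ligands. Each gene was tested with edgeR, and a call means an adjusted p under 0.05 over the 18560 genes tested. In the LPS mice against the control mice, 18 of the 48 tested members were higher, where 32.6% of all tested genes were higher, and 20 were lower, where 33.9% of all tested genes were lower. Of the 18, Bmp8a and Gdf5 had enough counts to be tested only through the LPS mice. With at least 10 counts asked of every library, which left both out, 16 were higher. Of the 20, Gdf6 had enough counts to be tested only through the control mice. The same filter left out Gdf6, Gdf10 and Gdf11 and gave 17 lower. In the dual-treated mice against the control mice, 1 tested member was higher (9.13% of all tested genes) and 11 were lower (7.02% of all tested genes). In the dual-treated mice against the LPS mice, 12 tested members were higher (31.7% of all tested genes) and 21 were lower (27.4% of all tested genes). The same shares of all tested genes are the background of every count of called genes below. These comparisons share mice: the first 2 share the control mice, and the third shares the LPS mice with the first and the dual-treated mice with the second. In bulk tissue, fewer cells of a type and less RNA per cell cannot be told apart.

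The count of 1 higher member against the control mice fell to 0 without control mouse 2 or without control mouse 4. That member, Tgfb1, also lost its call without dual-treated mouse 2 (0.55). Without dual-treated mouse 5, Inhbb (0.94) and Gdf3 were gained as higher. Gdf3 was tested there only through dual-treated mouse 2, where it was high, so its call is not used as support. The 11 lower members came to 7 without control mouse 1, to 7 without control mouse 2, to 7 without control mouse 4 and to 6 without dual-treated mouse 2. Without both LPS mice 6 and 7, a setting chosen after seeing the data, 16 members were higher and 16 lower in the LPS group, now 1 mouse assumed to vary like the other groups, against the control mice. The calls lost were those of Tgfb2, Bmp5, Gdf6, Gdf11, Bmpr1a, Tgfbr1 and Smad3, and Id3 was gained as higher. Against that single LPS mouse, 12 members were higher and 17 lower in the dual-treated mice, with Acvr1b, Acvr2a, Acvr2b, Tgfbr1 and Smad3 lost and Smad9 gained. Scaling by library size alone moved the median of all tested genes from -0.01 to -0.29 for LPS against control and from 0.06 to 0.38 for dual treatment against LPS, so a small change in either comparison depends on the scaling.

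**Figure D1:**
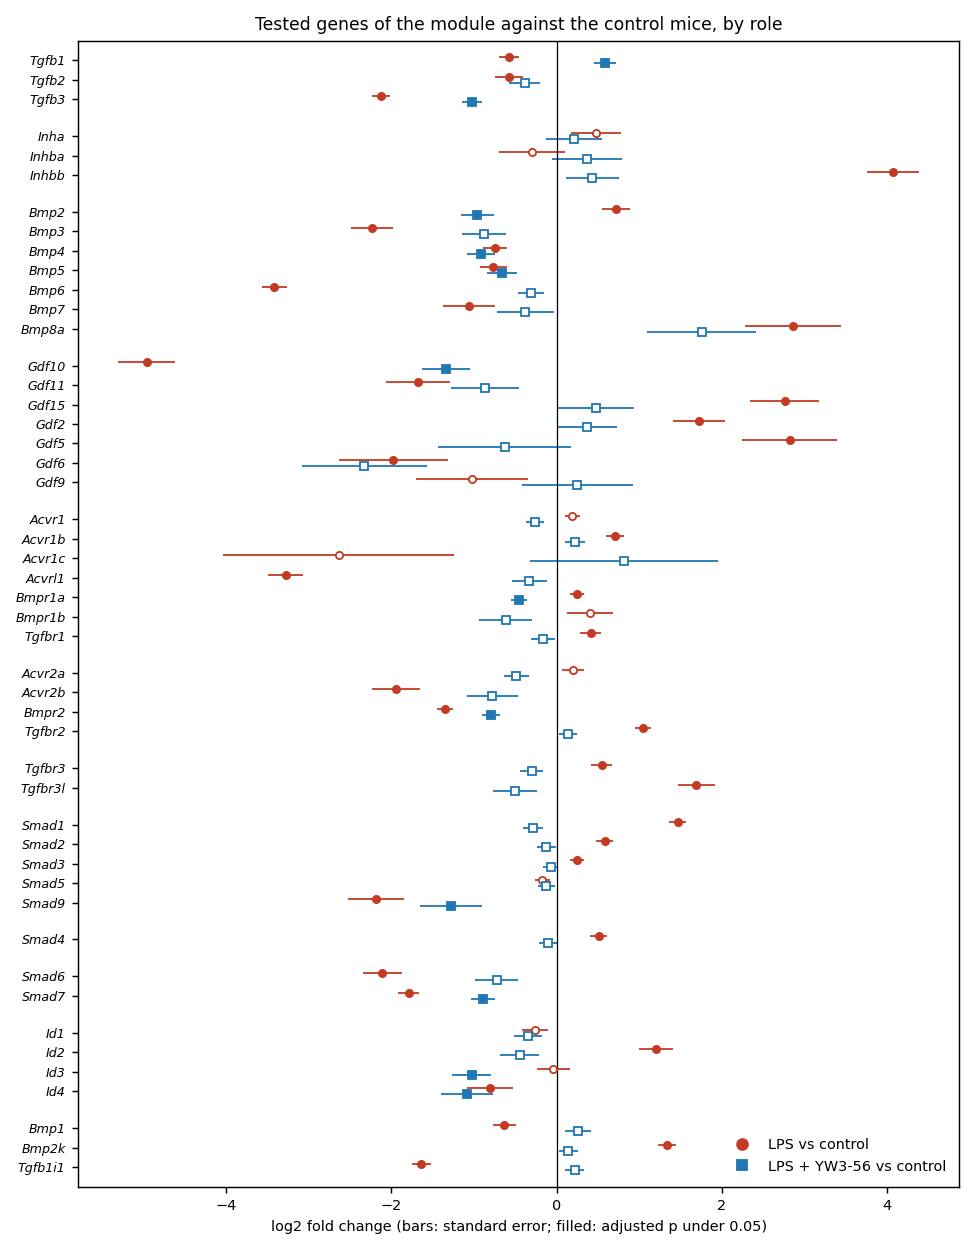
Log2 fold change against the control mice (x axis) of the 48 tested genes of the module, grouped by role (y axis), for 3 LPS mice (circles) and 2 dual-treated mice (squares); bars are standard errors and filled symbols have an adjusted p under 0.05. Values run from -4.96 for Gdf10 to 4.07 for Inhbb in the LPS mice, and among the called genes of the dual-treated mice from -1.34 for Gdf10 to 0.58 for Tgfb1, the second lost without control mouse 2 (0.58), control mouse 4 (0.53) or dual-treated mouse 2 (0.55) and the first without control mouse 4 (-1.30) or dual-treated mouse 2 (-1.05).

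Of the 20 tested ligand genes of 28, 6 were higher in the LPS mice (32.6% of all tested genes), 11 were lower (33.9% of all tested genes) and 3 were not called. Of these, Bmp8a and Gdf5 were tested only through the LPS mice, and Gdf6 only through the control mice. All 3 TGF-beta genes were lower, while the largest rise of the module was that of the activin subunit gene Inhbb and the largest fall that of Gdf10. Dual treatment left 1 ligand gene higher and 5 lower than in the control mice (9.13% and 7.02% of all tested genes). It left 5 higher and 5 lower than in the LPS mice (31.7% and 27.4% of all tested genes), or 9 higher with library size alone.

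Tgfb1, the TGF-beta gene with the highest level per kb of exon, encodes a cytokine made by many immune and stromal cells. It was at 69.9, 68 and 65.2 CPM in the control mice, 53.3, 45.9 and 37.6 CPM in the LPS mice, and 101 and 102 CPM in the dual-treated mice. The 3 groups did not overlap, with the LPS mice lowest and the dual-treated mice highest. Its log2 fold change (± standard error) was -0.57 ± 0.12 in the LPS mice (edgeR adjusted p = 0.00226) and 0.58 ± 0.13 in the dual-treated mice (0.0168) against the control mice, and the dual-treated mice exceeded the LPS mice by 1.15 ± 0.13 (edgeR adjusted p = 8.31e-05). It was the only member called higher in the dual-treated mice than in the control mice, and that call was lost without control mouse 2 (0.58), control mouse 4 (0.53) or dual-treated mouse 2 (0.55). Macrophage markers, led by Chil3, summed to 844, 562 and 773 CPM in the control mice, 843, 927 and 457 CPM in the LPS mice, and 1064 and 1683 CPM in the dual-treated mice. Of the 7 macrophage markers, 2 were lower in the LPS mice (Siglecf and Ear2), and 3 were higher in the dual-treated mice than in the control mice (Marco, Adgre1 and Cd68). These 5 were all higher in the dual-treated than in the LPS mice, Siglecf not so without dual-treated mouse 5 (0.46). Of the list none was at 0 in any mouse, and their part in the level of Tgfb1 was not tested.

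Tgfb3, the isoform known for palate and lung development, fell further. It was at 42.6, 47.5 and 46.3 CPM in the control mice, 11.5, 10 and 9.71 CPM in the LPS mice, and 21.8 and 23 CPM in the dual-treated mice. Each group lay clear of the others, with the dual-treated mice between. The log2 fold change was -2.13 ± 0.11 in the LPS mice and -1.02 ± 0.12 in the dual-treated mice (edgeR adjusted p = 7.83e-07 and 6.8e-04). Tgfb2 was at 29.3, 21 and 21.2 CPM in the control mice, 18.3, 15.7 and 14 CPM in the LPS mice, and 17 and 19.4 CPM in the dual-treated mice. Control mouse 1 stood above the other control mice, and the LPS mice lay below every control mouse. Tgfb2 had a log2 fold change of -0.57 ± 0.17 in the LPS mice (edgeR adjusted p = 0.012), a call that was lost without control mouse 1 (-0.40) or without both LPS mice 6 and 7 (-0.37), and it was not called in the dual-treated mice.

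Activins are dimers of the beta subunits encoded by Inhba and Inhbb, and inhibins pair one of these with the alpha subunit encoded by Inha. Inhbb was at 19.1, 21.9 and 17.9 CPM in the control mice, 391, 302 and 298 CPM in the LPS mice, and 38.5 and 14.6 CPM in the dual-treated mice. Every LPS mouse was far above every other mouse, and the dual-treated mice fell on either side of the control mice. The log2 fold change was 4.07 ± 0.32 in the LPS mice against the control mice (edgeR adjusted p = 4.95e-06) and -3.64 ± 0.37 in the dual-treated mice against the LPS mice (4.28e-05). Without dual-treated mouse 2 the second value was -4.52. Against the control mice the dual-treated mice had a log2 fold change of 0.43 ± 0.32, not called, which was 0.94 and called without dual-treated mouse 5 and -0.46 without dual-treated mouse 2. Per kb of exon, the mean level of Inhbb was 4.57 CPM in the control mice, 76.8 CPM in the LPS mice, and 6.17 CPM in the dual-treated mice, which made it the third most abundant member in the LPS mice after Id3 and Id1.

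Inhba was low throughout, at 1.42, 2.25 and 1.1 CPM in the control mice, 1.78, 1.33 and 0.781 CPM in the LPS mice, and 2.09 and 2.02 CPM in the dual-treated mice. The groups overlapped, and no comparison was called. Inha, at 3.43, 6.19 and 4.32 CPM in the control mice, 4.15, 6.99 and 8.21 CPM in the LPS mice, and 6.08 and 4.65 CPM in the dual-treated mice, was not called in any comparison, although without LPS mouse 1 the LPS mice were called higher (0.71). Inhbc and Inhbe, known from liver, had 0 counts in every mouse. At these depths a count of 0 allows up to 0.147 CPM in control mouse 1 and 0.178 CPM in LPS mouse 1 (3 counts, counting error only).

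Follistatin, encoded by Fst, binds and blocks activins. Fst was at 7.88, 7.7 and 5.98 CPM in the control mice, 1.6, 3.18 and 2.79 CPM in the LPS mice, and 13.7 and 13.8 CPM in the dual-treated mice. The groups did not overlap: the LPS mice were lowest and the dual-treated mice highest. Fst fell in the LPS mice (-1.51 ± 0.25, edgeR adjusted p = 5.67e-04) and was higher in the dual-treated mice than in the LPS mice (2.44 ± 0.27, 6.97e-05). Its rise against the control mice (0.94 ± 0.26, edgeR adjusted p = 0.0369) was lost when control mouse 1 (1.01), control mouse 2 (0.99), control mouse 4 (0.79), dual-treated mouse 2 (0.92) or dual-treated mouse 5 (0.90) was left out.

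Among the 7 tested BMP ligand genes of 10, 5 were lower in the LPS mice (33.9% of all tested genes) and 2 were higher (32.6% of all tested genes). One of the 2 higher was Bmp8a, which was tested only through its counts in the LPS mice. Bmp6, which in other tissues is known from endothelium and for the control of iron, was the most abundant BMP gene per kb in the control and dual-treated mice, behind Bmp4 in the LPS mice. Its level was 183, 197 and 244 CPM in the control mice, 22, 17.2 and 19.3 CPM in the LPS mice, and 152 and 183 CPM in the dual-treated mice. All 3 LPS mice were far below the other 5, and the dual-treated mice reached into the control range. The mean was 208 ± 31.7 CPM (SD, n = 3) in the control mice, 19.5 ± 2.41 CPM (SD, n = 3) in the LPS mice, and 167 ± 22.2 CPM (SD, n = 2) in the dual-treated mice. The log2 fold change was -3.41 ± 0.15 in the LPS mice and -0.31 ± 0.16 in the dual-treated mice against the control mice (edgeR adjusted p = 4.7e-07 and 0.209, the second not called), and 3.10 ± 0.16 between the treated groups (2.43e-06).

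Bmp2, Bmp3 and Bmp4 followed 3 different courses. Bmp2, a ligand of the same receptors as Bmp4, was at 8.37, 8.54 and 10.6 CPM in the control mice, 17.6, 13.4 and 14.2 CPM in the LPS mice, and 4.9 and 4.52 CPM in the dual-treated mice. The groups did not overlap, and here the LPS mice were highest and the dual-treated mice lowest, with log2 fold changes of 0.71 ± 0.17 and -0.96 ± 0.20 against the control mice (edgeR adjusted p = 0.00429 and 0.0112). Bmp4, known for lung branching and made by mesenchyme and endothelium, was at 79.3, 74.2 and 69.4 CPM in the control mice, 44, 46.8 and 42.2 CPM in the LPS mice, and 30.9 and 47.9 CPM in the dual-treated mice. Both treated groups lay below the control mice and overlapped each other. Bmp4 fell in the LPS mice (-0.74 ± 0.15, edgeR adjusted p = 0.00156) and in the dual-treated mice (-0.91 ± 0.17, 0.00678), and the treated groups were not called apart unless dual-treated mouse 5 was left out (-0.54). Bmp3, an atypical member that opposes other BMPs, was at 53.9, 61 and 51.8 CPM in the control mice, 9.73, 10.9 and 14.7 CPM in the LPS mice, and 20 and 40.4 CPM in the dual-treated mice. The dual-treated mice were unlike in level, and both lay between the other groups. Bmp3 fell in the LPS mice (-2.23 ± 0.25, edgeR adjusted p = 4.39e-05) and was higher in the dual-treated mice than in the LPS mice (1.35 ± 0.27, 0.00209), a difference of 0.73 without dual-treated mouse 5. Against the control mice the dual-treated mice had -0.88 ± 0.27 (edgeR adjusted p = 0.0551), which was called without LPS mouse 1 (-0.88), LPS mouse 7 (-0.88) or dual-treated mouse 5 (-1.50), with DESeq2 (-0.90), with no filter (-0.88) and with at least 10 counts asked of every library (-0.87). Without dual-treated mouse 2 this value of Bmp3 was -0.49 and not called.

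Of the other BMP genes, Bmp5 was at 26.6, 28.3 and 25.7 CPM in the control mice, 19.9, 13.5 and 14 CPM in the LPS mice, and 15.5 and 18.5 CPM in the dual-treated mice. Both treated groups lay below the control mice. Bmp5 was called lower in the LPS mice (-0.77 ± 0.16; -0.42 and not called without LPS mice 6 and 7) and in the dual-treated mice (-0.66 ± 0.18), and the second call was lost without control mouse 1 (-0.67), control mouse 2 (-0.62), control mouse 4 (-0.72) or dual-treated mouse 2 (-0.57). Bmp7 fell by 1.06 on the log2 scale in the LPS mice, from 2.1, 3.14 and 2.67 CPM to 0.89, 1.44 and 1.45 CPM, and lost its call without control mouse 2 (-0.92). Bmp8a was called higher in the LPS mice, but on 3, 1 and 2 counts in the control mice, 12, 10 and 16 counts in the LPS mice, and 6 and 9 counts in the dual-treated mice, so its fold change rests on a group with 3 counts or fewer and is not given. It had enough counts to be tested only through the LPS mice, so its call is not used as support. Bmp10, known from the heart atrium, had 1, 2 and 5 counts in the LPS mice, 0, 0 and 0 in the control mice, and 0 and 1 in the dual-treated mice. Bmp15 had at most 3 counts and Bmp8b at most 2 in any mouse. None of these last 3 was tested.

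Of the 7 tested GDF genes of 10, 3 were higher in the LPS mice (32.6% of all tested genes), 3 were lower (33.9% of all tested genes) and 1 (Gdf9) was not called. Among the 3 lower, Gdf6 lost its call in 5 of the 12 alternatives that tested it, and Gdf11 without both LPS mice 6 and 7. Gdf5 was tested only through the LPS mice, and Gdf6 only through the control mice. Gdf10, also called Bmp3b, had 118, 127 and 147 counts in the control mice, 4, 3 and 3 counts in the LPS mice, and 40 and 69 counts in the dual-treated mice, or 5.77, 5.96 and 6.76 CPM, 0.237, 0.173 and 0.167 CPM, and 1.82 and 3.03 CPM. Levels in the LPS mice were near the limit of detection, and the dual-treated mice lay between the groups. Its log2 fold change was -4.96 ± 0.34 in the LPS mice (edgeR adjusted p = 2.64e-06), the largest fall among tested members, and 3.61 ± 0.37 for the dual-treated against the LPS mice (4.51e-05). Both sizes rest on 4, 3 and 3 counts in the LPS mice and are only approximate. The fall in the dual-treated mice against the control mice (-1.34 ± 0.29, edgeR adjusted p = 0.0137) was lost without control mouse 4 (-1.30) or dual-treated mouse 2 (-1.05).

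Gdf2 (BMP9), a circulating ligand of Acvrl1 known to come from liver, lies next to Gdf10 and went the other way. It was at 0.832, 0.798 and 1.1 CPM in the control mice, 3.92, 2.77 and 2.4 CPM in the LPS mice, and 1.13 and 1.23 CPM in the dual-treated mice, on 17, 17 and 24 counts, 66, 48 and 43 counts, and 25 and 28 counts. Every LPS mouse was above every other mouse. Gdf2 rose by 1.72 ± 0.31 on the log2 scale in the LPS mice (edgeR adjusted p = 9.27e-04), and the dual-treated mice were below the LPS mice (-1.35 ± 0.35, 0.0085). Hepatocyte markers, led by Cyp2e1, summed to 10.8, 30 and 11.7 CPM in the control mice, 4.09, 6.64 and 6.53 CPM in the LPS mice, and 16.7 and 8.78 CPM in the dual-treated mice. Of these 8 markers only 3 were tested, Serpina1a was at 0 in every mouse and Alb, Apoa1, Ttr and Apoh in some, and 2 (Ahsg and Cyp2e1) were lower in the LPS mice. Alb was not called in the LPS mice, and it was lower in the dual-treated mice, at 1 and 0 counts, than in the control mice (13, 19 and 13 counts) and the LPS mice (8, 11 and 14 counts). Against the LPS mice Ahsg was higher in the dual-treated mice, and Cyp2e1 (1.41) was not called, but was called higher without control mouse 2 (1.41), without both LPS mice 6 and 7 (2.67), with library size alone (1.71) and with 3 other settings. The part of liver RNA in the result for Gdf2 was not tested. On GRCm39, Gdf10 spans chr14:33645273-33659940 and Gdf2 chr14:33662929-33669155, both on the plus strand with 2.99 kb between them.

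Gdf15, a stress cytokine, was the most abundant GDF gene per kb, at 2.59, 4.32 and 2.67 CPM in the control mice, 37.3, 13.4 and 14.2 CPM in the LPS mice, and 4.76 and 4.13 CPM in the dual-treated mice. LPS mouse 1 was highest, and the other 2 LPS mice were also above the rest. Gdf15 rose in the LPS mice (2.76 ± 0.41, edgeR adjusted p = 2.73e-04) and was lower in the dual-treated mice than in the LPS mice (-2.28 ± 0.47, 0.00245). Without LPS mouse 1 these values were 2.12 and -1.64, and with LPS mouse 1 alone, without LPS mice 6 and 7, 3.55 and -3.07, all still called. Gfral, the receptor of Gdf15 in the hindbrain, had 0 counts in every mouse. Gdf5, known from joints, had 2, 5 and 2 counts in the control mice, 20, 11 and 23 counts in the LPS mice, and 2 and 2 counts in the dual-treated mice. The LPS mice were above the others, and Gdf5 was called higher there than in the control mice. It had enough counts to be tested only through the LPS mice, so its call is not used as support. Both other groups were near the limit of detection and too low for a fold.

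Few counts were recorded for the remaining GDF genes. Gdf11, a relative of myostatin, fell by 1.68 on the log2 scale in the LPS mice, from 2.2, 1.36 and 1.47 CPM to 0.653, 0.52 and 0.391 CPM, or had a value of -1.35 and not called without LPS mice 6 and 7. Gdf6 was called lower in the LPS mice on 10, 7 and 13 counts in the control mice, 3, 1 and 2 counts in the LPS mice, and 1 and 3 counts in the dual-treated mice. The call was lost without LPS mouse 6, LPS mouse 7 or both, with DESeq2 and with no filter. Gdf6 was not tested without control mouse 1 or 4, with the 2 groups fitted alone or with at least 10 counts in every library. Only the control mice gave it enough counts to be tested, so its call is not used as support. Gdf9, known from the oocyte, stayed between 0.116 CPM and 1.20 CPM in the 8 mice. Gdf1 had 0 counts in every mouse, which does not give its level, because all of its exon bases lie in exons of Cers1. Gdf7 had at most 8 counts, and Gdf3 had 1, 0 and 1 counts in the control mice, 1, 0 and 2 counts in the LPS mice, and 15 and 10 counts in the dual-treated mice. Its counts in the dual-treated mice were above those in every other mouse.

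**Figure D2:**
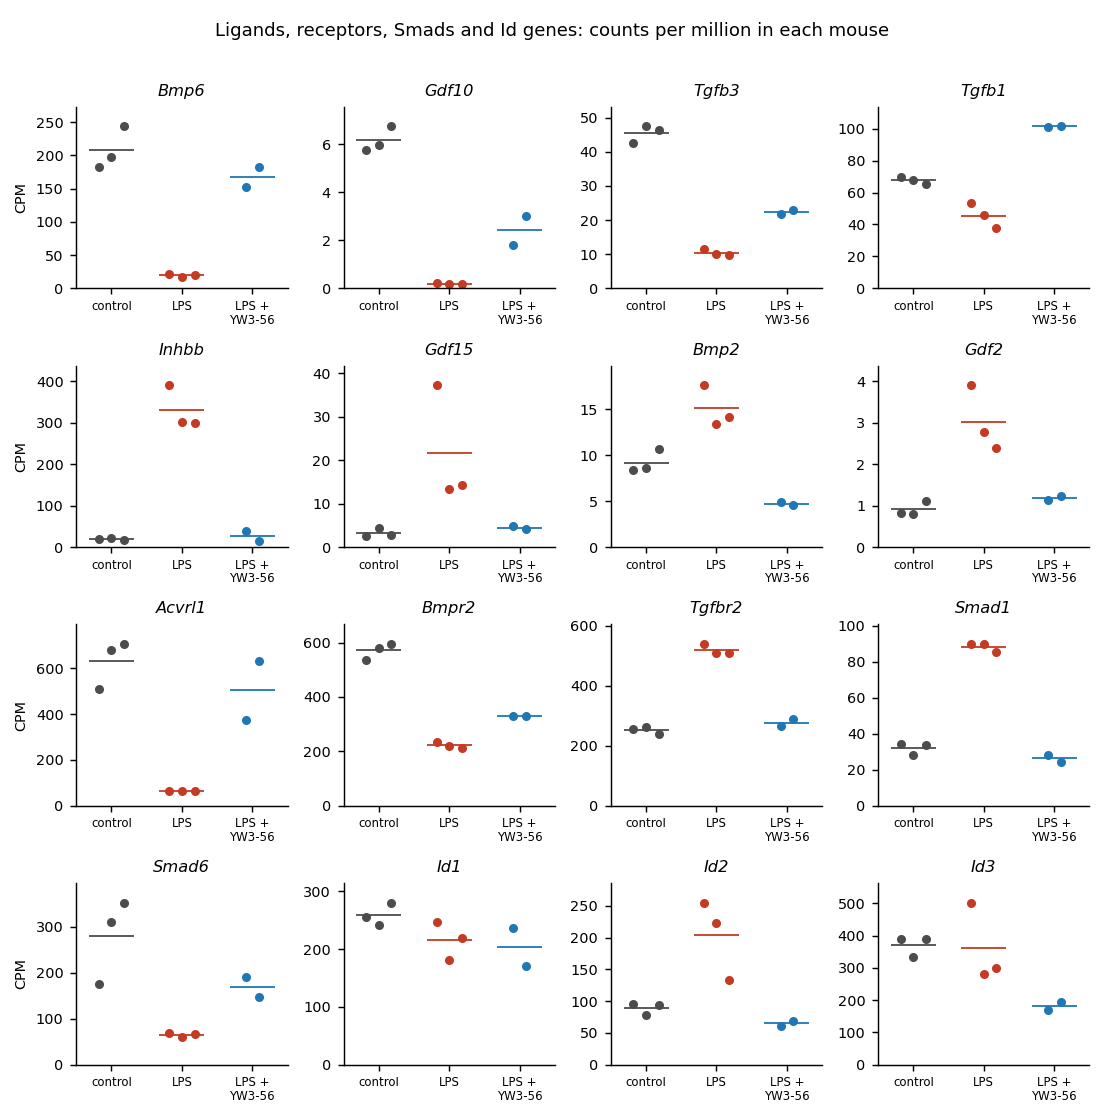
CPM (y axis, from 0, a separate scale in each panel) in each of the 3 control, 3 LPS and 2 dual-treated mice (points), with the group mean (line), for 16 ligand, receptor, Smad and Id genes. Bmp6 and Acvrl1 are lowest in the LPS mice, Inhbb and Smad1 highest there, and Tgfb1 is highest in the dual-treated mice, at 101 and 102 CPM.

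Of the 13 receptor and coreceptor genes, all tested, 6 were higher and 3 lower in the LPS mice than in the control mice (32.6% and 33.9% of all tested genes). With library size alone 3 of the 6 lost their calls (Tgfbr1, Tgfbr3 and Bmpr1a) and Bmpr1a turned downward. With dual treatment 2 were lower than in the control mice (7.02% of all tested genes) and 0 were higher (0 with DESeq2, and 0 at an unadjusted edgeR p under 0.05), beside 9.13% of all tested genes. Against the LPS mice 3 were higher and 9 lower with dual treatment (31.7% and 27.4% of all tested genes). Against the control mice Bmpr1a lost its call without control mouse 1 (-0.41), control mouse 2 (-0.45) or dual-treated mouse 2 (-0.45). Acvr2a (-0.49) was gained as lower with RLE scaling (-0.50), DESeq2 (-0.51), no filter (-0.49) and the 2 groups fitted alone (-0.47), and without LPS mouse 1 (-0.49) or LPS mouse 7 (-0.49). Also gained as lower were Acvr2b with the 2 groups fitted alone (-0.76), Acvrl1 without dual-treated mouse 5 (-0.79) and Tgfbr3 without dual-treated mouse 2 (-0.60). With library size alone, 5 of those 9 (Acvr1, Acvr1b, Acvr2a, Bmpr1b and Tgfbr1) were no longer called lower than in the LPS mice, and Acvr1c was called higher. Against the LPS mice, the call of Tgfbr1 was lost without dual-treated mouse 2 (-0.40), those of Acvr1b (-0.36), Bmpr1b (-0.86) and Acvr2b (0.79) without dual-treated mouse 5, and that of Bmpr1b without LPS mouse 7 (-0.76).

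Acvrl1 (ALK1), the type I receptor of endothelium and the receptor of Gdf2, was the most abundant receptor gene per kb in the control mice, at a mean of 83.6 CPM per kb against 8.62 CPM per kb in the LPS mice and 66.6 CPM per kb in the dual-treated mice. Mouse by mouse it was at 511, 678 and 707 CPM in the control mice, 65.9, 65.1 and 64.5 CPM in the LPS mice, and 374 and 632 CPM in the dual-treated mice. The 3 LPS mice were close together and far below the rest, while the dual-treated mice were spread, one within the control range and one below it. The log2 fold change was -3.28 ± 0.21 in the LPS mice (edgeR adjusted p = 1.89e-06) and 2.95 ± 0.22 for the dual-treated against the LPS mice (8.91e-06). Against the control mice the dual-treated mice had -0.33 ± 0.22, not called, which became -0.79 and called without dual-treated mouse 5. Without dual-treated mouse 2 it was -0.03 and not called.

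Its type II partner Bmpr2, the gene most often mutated in heritable pulmonary arterial hypertension, was at 537, 580.0 and 595 CPM in the control mice, 236, 221 and 213 CPM in the LPS mice, and 329 and 329 CPM in the dual-treated mice. Here each group lay clear of the others, and the dual-treated mice were between. Bmpr2 fell in the LPS mice (-1.35 ± 0.10, edgeR adjusted p = 3.32e-06) and in the dual-treated mice (-0.80 ± 0.11, 0.00163), and the treated groups differed by 0.56 ± 0.11 (0.00163). Endoglin, encoded by Eng, is the coreceptor that presents Gdf2 to Acvrl1. Eng was at 547, 777 and 806 CPM in the control mice, 364, 251 and 326 CPM in the LPS mice, and 809.6 and 545 CPM in the dual-treated mice. Values in the LPS mice were below all others, and the dual-treated mice spanned the control range. Eng fell by 1.18 on the log2 scale in the LPS mice (edgeR adjusted p = 8.12e-04) and had -0.07 ± 0.23 in the dual-treated mice (0.883, not called).

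Most markers of endothelium were also lower in the LPS mice. Of 9 markers, all tested, 7 were lower in the LPS mice than in the control mice (Pecam1, Tie1, Tek, Kdr, Emcn, Ramp2 and Vwf), with a median of -1.84 beside -0.01 over all tested genes. Summed over the list, the level was 3864, 4292 and 4402 CPM in the control mice, 2208, 1844 and 1838 CPM in the LPS mice, and 3677 and 4097 CPM in the dual-treated mice. The fall differed between markers. Ramp2, a subunit of the adrenomedullin receptor, was at 547, 515 and 527 CPM in the control mice, 31.1, 37.8 and 36.6 CPM in the LPS mice, and 462 and 519.6 CPM in the dual-treated mice. Cdh5 (VE-cadherin), the most abundant of the list, was at 589.9, 659 and 737 CPM in the control mice, 938, 657 and 642 CPM in the LPS mice, and 510.0 and 590.2 CPM in the dual-treated mice, and Cldn5 at 577, 626 and 649 CPM, 638, 610.0 and 576 CPM, and 698 and 581 CPM. With TMM and all mice, edgeR called neither of these last 2 markers in any comparison, and no marker of the list was at 0 in any mouse. Cdh5 was called lower in the dual-treated than in the LPS mice with DESeq2 (-0.48), RLE scaling (-0.49) and no filter (-0.41), without LPS mouse 7 (-0.55) and without both LPS mice 6 and 7 (-0.78). In the LPS group against the control mice, Cdh5 was called higher without both of these mice (0.51). Scaled by library size alone, Cldn5 was called lower in the LPS mice (-0.31) and higher in the dual-treated than in the LPS mice (0.40). Dual-treated mice had 1 marker higher (Pecam1) and 1 lower (Kdr) than the control mice, and the same 7 that fell in the LPS mice were higher than in the LPS mice. The call of Pecam1 against the control mice (0.60) was lost without control mouse 1 (0.55), control mouse 2 (0.62) or dual-treated mouse 2 (0.44). Without dual-treated mouse 5, Tek (-1.11), Tie1 (-0.60) and Vwf (-1.01) were also called lower than in the control mice, and Tek was with DESeq2 (-0.67) and no filter (-0.65). Against the LPS mice, Emcn (0.50) lost its call without dual-treated mouse 2 (0.41) and without both LPS mice 6 and 7 (0.42), and Vwf (1.35) came to 0.84 without dual-treated mouse 5. The part of the endothelial markers in the results for Acvrl1, Bmpr2, Eng and Bmp6 was not tested.

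**Figure D3:**
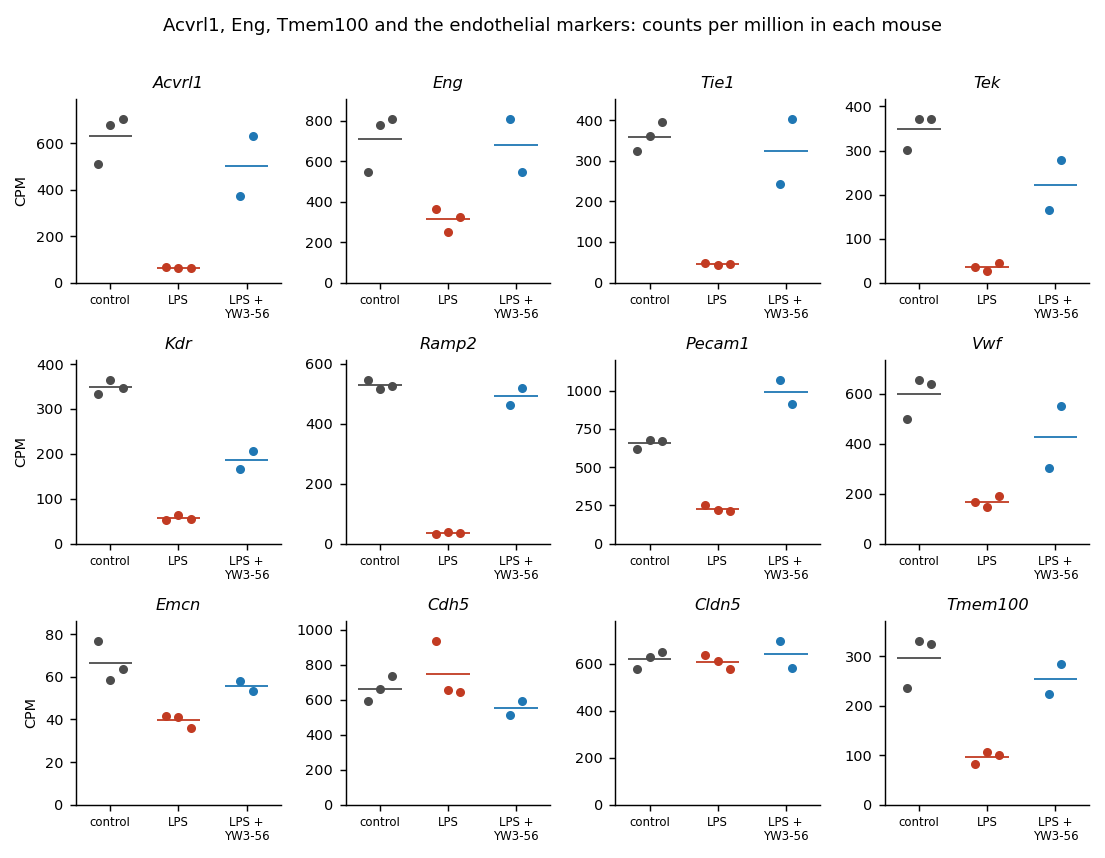
CPM (y axis, from 0, a separate scale in each panel) in each of the 3 control, 3 LPS and 2 dual-treated mice (points), with the group mean (line), for Acvrl1, Eng, Tmem100 and the 9 endothelial markers. Ramp2 is at 31.1, 37.8 and 36.6 CPM in the LPS mice against at least 462 CPM in every other mouse, while Cdh5 and Cldn5 overlap between the control and LPS mice.

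The receptors for TGF-beta itself went up in the LPS mice. Tgfbr2, the type II receptor that binds TGF-beta, was at 254, 262 and 240.0 CPM in the control mice, 540.4, 509 and 509 CPM in the LPS mice, and 265 and 289.7 CPM in the dual-treated mice. The LPS mice were about level with one another and far above the rest, and both dual-treated mice were just above the control mice. Tgfbr2 rose by 1.04 ± 0.10 on the log2 scale in the LPS mice (edgeR adjusted p = 1.25e-05), with 0.14 ± 0.11 in the dual-treated mice (0.421, not called). Tgfbr1 (ALK5), its type I partner, was at 65.3, 51.2 and 53.4 CPM in the control mice, 72.6, 76.3 and 76.8 CPM in the LPS mice, and 42.8 and 58.1 CPM in the dual-treated mice. The LPS mice were above all others. The rise (0.41 ± 0.13, edgeR adjusted p = 0.0202) was 0.13 and not called when scaled by library size alone, and it was lost without control mouse 2 (0.34), control mouse 4 (0.37) or LPS mice 6 and 7 (0.36) and with upper quartile scaling (0.32). Tgfbr3 (betaglycan), the coreceptor that presents TGF-beta, was at 128, 122 and 125 CPM in the control mice, 184, 184 and 179 CPM in the LPS mice, and 119 and 84.2 CPM in the dual-treated mice. The LPS mice stood above the rest, and the rise (0.54 ± 0.12, edgeR adjusted p = 0.00332) was 0.26 and not called with library size alone. The dual-treated mice had -0.30 ± 0.14 against the control mice, called only without dual-treated mouse 2 (-0.60), and -0.11 without dual-treated mouse 5. Tgfbr3l, a related coreceptor, was at 2.98, 3.8 and 3.45 CPM in the control mice, 10.7, 9.53 and 12.8 CPM in the LPS mice, and 1.86 and 2.94 CPM in the dual-treated mice, with the LPS mice above all others (1.69 ± 0.23, edgeR adjusted p = 1.35e-04).

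Bmpr1a (ALK3), a type I receptor for Bmp2 and Bmp4, was at 87, 82.5 and 75.8 CPM in the control mice, 100.4, 94.3 and 96.9 CPM in the LPS mice, and 58.5 and 61.1 CPM in the dual-treated mice. The dual-treated mice were below all others. Its log2 fold change of -0.45 ± 0.10 in the dual-treated mice (edgeR adjusted p = 0.0133) lost its call without control mouse 1 (-0.41), control mouse 2 (-0.45) or dual-treated mouse 2 (-0.45). The small rise in the LPS mice (0.25 ± 0.09, edgeR adjusted p = 0.0259) turned to -0.037, not called, when scaled by library size alone, and was lost without control mouse 2 (0.25), control mouse 4 (0.20), LPS mouse 1 (0.23) or LPS mice 6 and 7 (0.30), with upper quartile scaling (0.16) and with no filter (0.22). Between the treated groups the value was -0.70 ± 0.10 (2.53e-04).

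Acvr1b (ALK4), the activin receptor that lies 28.7 kb beyond Acvrl1 on the same strand, was at 91, 102 and 102 CPM in the control mice, 153, 153 and 176 CPM in the LPS mice, and 127 and 103 CPM in the dual-treated mice, and rose in the LPS mice (0.71 ± 0.11). On GRCm39, Acvrl1 spans chr15:101025996-101043217 and Acvr1b chr15:101071921-101111565. Acvr2b, a type II activin receptor, was at 10.1, 9.95 and 11.9 CPM in the control mice, 3.5, 1.67 and 3.13 CPM in the LPS mice, and 4.86 and 7.55 CPM in the dual-treated mice, and fell in the LPS mice (-1.94 ± 0.29). The receptor genes Acvr1, Acvr2a, Bmpr1b and Acvr1c were not called in the LPS mice against the control mice, apart from Acvr2a without LPS mouse 1 (0.32) and Acvr1c, lower with no filter. Acvr1c (ALK7), known from fat, had 4, 33 and 3 counts in the control mice, 0, 3 and 2 counts in the LPS mice, and 46 and 3 counts in the dual-treated mice. Nearly all of its counts came from control mouse 2 and dual-treated mouse 2. Adipocyte markers, led by Cfd, summed to 73.4, 349 and 88.8 CPM in the control mice, 65.7, 147 and 172 CPM in the LPS mice, and 436 and 43.2 CPM in the dual-treated mice, highest in the same 2 mice. None of the 5 adipocyte markers was at 0 in any mouse, 1 (Plin1) was lower in the LPS mice, a call that was lost without control mouse 2 (-1.79) and without LPS mouse 1 (-2.81), 6 (-3.54) or 7 (-3.63), and their part in the counts of Acvr1c was not tested.

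In the LPS mice 3 of the 5 receptor Smads (Smad1, Smad2 and Smad3, the last turned downward by library size alone) and the common Smad4, whose call was lost with it, were higher, Smad9 and both inhibitory Smads were lower, and Smad5 was not called, except as lower with library size alone (-0.46) and with upper quartile scaling (-0.27). Smad1, a transducer of BMP signals, was at 34.3, 28.2 and 33.5 CPM in the control mice, 89.6, 89.9 and 85.2 CPM in the LPS mice, and 28.2 and 24.4 CPM in the dual-treated mice. Each LPS mouse was more than double any other mouse. Smad1 rose by 1.46 ± 0.11 on the log2 scale in the LPS mice (edgeR adjusted p = 3.25e-06), and the dual-treated mice had -0.28 ± 0.12 against the control mice (0.138, not called). Smad9 (Smad8), which answers to the same receptors, was at 12.6, 12.4 and 13.6 CPM in the control mice, 1.42, 3.58 and 3.46 CPM in the LPS mice, and 3.77 and 6.85 CPM in the dual-treated mice. Both treated groups lay below the control mice. Smad9 fell in the LPS mice (-2.19 ± 0.34, edgeR adjusted p = 3.46e-04; -3.17 without both LPS mice 6 and 7) and in the dual-treated mice (-1.28 ± 0.37, 0.0442). The second call was lost with scaling by library size alone (-1.24) and without control mouse 1 (-1.29), control mouse 2 (-1.31), control mouse 4 (-1.27) or dual-treated mouse 2 (-0.94). Against the LPS mice Smad9 (0.91) was not called in the dual-treated mice, but it was called higher in 8 of 16 alternatives: without LPS mouse 6 (1.11), dual-treated mouse 2 (1.24) or both LPS mice 6 and 7 (1.89), with DESeq2 (0.86), no filter (0.93), at least 10 counts in every library (0.93), upper quartile scaling (0.98) and library size alone (1.21). Without dual-treated mouse 5 the value fell to 0.38 and was not called.

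Smad3, a transducer of TGF-beta and activin, was at 71, 72.2 and 71.9 CPM in the control mice, 81.2, 81.8 and 92 CPM in the LPS mice, and 65.9 and 70.4 CPM in the dual-treated mice. The groups were close to one another, with the LPS mice above the rest by less than they were for Smad1. The log2 fold change of 0.25 ± 0.08 in the LPS mice (edgeR adjusted p = 0.0271) turned to -0.036, not called, with library size alone, and lost its call without control mouse 1 (0.24), control mouse 2 (0.25), control mouse 4 (0.25), LPS mouse 7 (0.19) or LPS mice 6 and 7 (0.18), with upper quartile scaling (0.15) and with no filter (0.22). Smad4, the partner of all receptor Smads, was at 70.4, 77.4 and 76.1 CPM in the control mice, 97.7, 100.3 and 120.2 CPM in the LPS mice, and 72.6 and 66.8 CPM in the dual-treated mice. It rose in the LPS mice (0.51 ± 0.10, edgeR adjusted p = 0.00181), though with library size alone the value was 0.23 and not called. Smad2 rose by 0.58 ± 0.10 on the log2 scale in the LPS mice, and Smad5 had -0.17 ± 0.09, called only when scaled by library size alone (-0.46) or by upper quartile (-0.27).

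The inhibitory Smads, which are themselves switched on by the pathway, fell in the LPS mice. Smad6, which mainly restrains BMP signals, was at 176, 311 and 353 CPM in the control mice, 67.8, 60.2 and 66.6 CPM in the LPS mice, and 191 and 147 CPM in the dual-treated mice. The LPS mice were below all others, control mouse 1 was well below the other control mice, and the dual-treated mice were near control mouse 1. The log2 fold change was -2.11 ± 0.23 in the LPS mice (edgeR adjusted p = 3.96e-05) and -0.73 ± 0.26 in the dual-treated mice (0.0851, not called). The second value was called without control mouse 1 (-0.97), with DESeq2 (-0.75) and with no filter (-0.73). Smad7, which restrains both arms, was at 118, 119.5 and 125 CPM in the control mice, 40.6, 31 and 33 CPM in the LPS mice, and 56.6 and 73.3 CPM in the dual-treated mice. Each group lay clear of the others. Smad7 fell in the LPS mice (-1.79 ± 0.13, edgeR adjusted p = 3.59e-06) and in the dual-treated mice (-0.89 ± 0.15, 0.00362), and the dual-treated mice were above the LPS mice (0.90 ± 0.14, 5.47e-04).

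Id proteins are inhibitors of helix-loop-helix transcription factors and the usual readout of BMP signals. Id3 and Id1 were the 2 most abundant members per kb in the control mice, at means of 207 CPM per kb and 146 CPM per kb. Id1 was at 255, 242 and 281 CPM in the control mice, 248, 182 and 219.9 CPM in the LPS mice, and 237 and 171 CPM in the dual-treated mice. The groups overlapped, and no comparison was called, with log2 fold changes of -0.26 ± 0.15 and -0.35 ± 0.17 against the control mice; scaled by library size alone, the LPS value was -0.55 and called. Id3 was at 389, 334 and 389 CPM in the control mice, 502, 282 and 298 CPM in the LPS mice, and 169.7 and 193 CPM in the dual-treated mice. LPS mouse 1 was above every control mouse and LPS mice 6 and 7 were below them, while both dual-treated mice were below all others. The LPS value of -0.039 ± 0.20 was not called, but it was -0.35 and called without LPS mouse 1, and 0.44 and called in LPS mouse 1 alone, whose spread was taken from the other groups. Id3 fell in the dual-treated mice against the control mice (-1.03 ± 0.24, edgeR adjusted p = 0.018), a call that was lost without control mouse 1 (-0.99) or dual-treated mouse 2 (-0.97).

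Id2, which is also known from lymphoid and myeloid cells, was at 94.6, 77.5 and 93.8 CPM in the control mice, 255, 223 and 133 CPM in the LPS mice, and 61 and 68.8 CPM in the dual-treated mice. Every LPS mouse was above every other mouse, and the dual-treated mice were lowest. Id2 rose in the LPS mice (1.20 ± 0.21, edgeR adjusted p = 7.26e-04), and the dual-treated mice were below the LPS mice (-1.65 ± 0.25, 3.82e-04). Against the control mice the dual-treated mice had -0.45 ± 0.24, called only without LPS mouse 7 (-0.45) or when the 2 groups were fitted alone (-0.44). Id4 was far lower, at 7.29, 5.82 and 5.47 CPM in the control mice, 2.2, 4.39 and 4.02 CPM in the LPS mice, and 2.81 and 3.03 CPM in the dual-treated mice. Both treated groups lay below the control mice. The call in the LPS mice (-0.81 ± 0.27, edgeR adjusted p = 0.0252) was lost without control mouse 1 (-0.68) or LPS mouse 1 (-0.55). The call in the dual-treated mice (-1.08 ± 0.31, edgeR adjusted p = 0.0441) was lost with library size alone (-1.04) and without control mouse 1 (-0.95), control mouse 2 (-1.13), control mouse 4 (-1.19), dual-treated mouse 2 (-1.06) or dual-treated mouse 5 (-1.17).

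The 3 genes that only carry a pathway name were all called in the LPS mice; against the control mice 0 were called in the dual-treated mice with edgeR (0 with DESeq2, and 0 at an unadjusted edgeR p under 0.05). Bmp1, the protease that trims procollagen and frees BMPs by cutting chordin, was at 82.3, 79.8 and 91 CPM in the control mice, 51.6, 49.8 and 61.8 CPM in the LPS mice, and 118 and 83.5 CPM in the dual-treated mice, with a log2 fold change of -0.63 ± 0.14 in the LPS mice. Tgfb1i1 was at 59.1, 62.9 and 60.1 CPM in the control mice, 21.9, 18.9 and 17.9 CPM in the LPS mice, and 76.6 and 64.8 CPM in the dual-treated mice, with -1.64 ± 0.11 in the LPS mice. Bmp2k went up, from 20.5, 18.3 and 20.5 CPM to 49, 47.6 and 52.9 CPM (1.33 ± 0.10). In each of the 3 the LPS mice lay clear of the other groups.

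Beyond the module, 27 secreted antagonists and regulators of the ligands were examined, of which 22 were tested. In the LPS mice 7 were higher and 9 lower (32.6% and 33.9% of all tested genes). In the dual-treated mice 3 were higher and 7 lower than in the control mice (9.13% and 7.02% of all tested genes). In the same mice 4 were higher and 8 lower than in the LPS mice (31.7% and 27.4% of all tested genes). Grem1, among the 7 higher in the LPS mice and among these 8, had enough counts to be tested only through the LPS mice. Library size alone gave 4 higher and 11 lower in the LPS mice, and 8 higher and 5 lower in the dual-treated than in the LPS mice. The 3 higher in the dual-treated than in the control mice came to 1 without control mouse 2, control mouse 4 or either dual-treated mouse (Lrrc32 and Fst lost), and the 7 lower to 4 without dual-treated mouse 2. Wfikkn1, which binds Gdf11 and myostatin, was at 0.685, 0.563 and 1.1 CPM in the control mice, 40.1, 36.9 and 38.9 CPM in the LPS mice, and 0.817 and 0.922 CPM in the dual-treated mice. All LPS mice were far above the others, with a log2 fold change of 5.61 ± 0.22 (edgeR adjusted p = 3.09e-07), and the dual-treated mice had 0.14 ± 0.28 against the control mice (0.794, not called). Bmper, a secreted modulator of BMPs made by endothelium, was at 13.8, 14.6 and 11 CPM in the control mice, 59.3, 44.4 and 39.7 CPM in the LPS mice, and 14.8 and 13.2 CPM in the dual-treated mice (1.86 ± 0.17 in the LPS mice). Dand5, a secreted antagonist, fell by 2.07 on the log2 scale in the LPS mice and had -0.13 in the dual-treated mice, not called.

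Grem1, at 3, 13 and 6 counts in the control mice, 12, 30 and 14 counts in the LPS mice, and 4 and 3 counts in the dual-treated mice, was called higher in the LPS mice (1.62 ± 0.60, edgeR adjusted p = 0.0368), a call that was lost without control mouse 1 (1.27), control mouse 4 (1.49) or LPS mouse 6 (1.11), without both LPS mice 6 and 7 (1.04), with DESeq2 (1.67) and with library size alone (1.34); without control mouse 2 the value was 2.30. Outside the LPS mice Grem1 had too few counts to be tested, so its call is not used as support. Chrdl1, a BMP antagonist, fell in both treated groups (-1.67 in the LPS mice and -1.46 in the dual-treated mice). Ltbp4, which anchors latent TGF-beta in the elastic matrix, was at 509, 511 and 555 CPM in the control mice, 497, 359.9 and 387 CPM in the LPS mice, and 177 and 213 CPM in the dual-treated mice, below every other mouse. It fell in the dual-treated mice against the control mice (-1.43 ± 0.16, edgeR adjusted p = 6.17e-04) and against the LPS mice (-1.09 ± 0.16, 3.84e-04). In the LPS mice it had -0.34 ± 0.14 against the control mice (0.0541, not called), which was called without LPS mouse 1 (-0.48), without dual-treated mouse 2 (-0.35) or without dual-treated mouse 5 (-0.35). The same value was also called with library size alone (-0.64), upper quartile scaling (-0.44), no filter (-0.37), at least 10 counts in every library (-0.36) and the 2 groups fitted alone (-0.35). It was -0.24 without LPS mouse 6, and the smallest fall over all alternatives was -0.07, neither called. Nrros, which holds latent TGF-beta on myeloid cells, was at 20.6, 17.6 and 23.6 CPM in the control mice, 28.7, 29.6 and 26.8 CPM in the LPS mice, and 42.6 and 53.4 CPM in the dual-treated mice. It rose in the dual-treated mice against the control mice (1.22 ± 0.15, edgeR adjusted p = 7.84e-04). Its smaller rise in the LPS mice (0.46 ± 0.14, edgeR adjusted p = 0.0128) was lost without control mouse 2 (0.36), without both LPS mice 6 and 7 (0.48) and with library size alone (0.18).

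Of 12 listed coreceptors and membrane regulators, 11 were matched and 10 tested. In the LPS mice 3 were higher (Itgav, Itgb6 and Itgb8) and 2 lower (Eng and Neo1), beside 32.6% and 33.9% of all tested genes. In the dual-treated mice 4 were lower than in the control mice (7.02% of all tested genes). In the same mice 1 was higher and 5 lower than in the LPS mice (31.7% and 27.4% of all tested genes). Library size alone gave 4 lower in the LPS mice, and 2 higher and 4 lower in the dual-treated than in the LPS mice. The 4 lower than in the control mice came to 2 without control mouse 2, control mouse 4 or dual-treated mouse 5, and to 1 without dual-treated mouse 2. Itgb6, a subunit of the epithelial integrin that frees active TGF-beta, was at 18.9, 15.9 and 21.4 CPM in the control mice, 60.8, 49 and 45.4 CPM in the LPS mice, and 23.8 and 19.1 CPM in the dual-treated mice. It was highest in the LPS mice without overlap (1.46 ± 0.16, edgeR adjusted p = 3.24e-05). Itgb8, another integrin subunit with that function, rose by 1.28 ± 0.32, from 0.881, 1.17 and 0.782 CPM to 1.84, 2.54 and 2.51 CPM, but was not called without LPS mice 6 and 7 (0.96). Bambi, a receptor without a kinase that blocks TGF-beta and BMP signals, was at 38.4, 46 and 49.8 CPM in the control mice, 51.2, 33.6 and 32.9 CPM in the LPS mice, and 17.4 and 23.5 CPM in the dual-treated mice, which were lowest. It fell in the dual-treated mice (-1.13 ± 0.22, edgeR adjusted p = 0.00964), a call lost without dual-treated mouse 2 (-0.96). Neo1, which binds the repulsive guidance molecules, fell in the LPS mice (-0.84) and in the dual-treated mice (-0.73). Hjv, a BMP coreceptor known from muscle and liver, was called lower in the dual-treated mice (-1.62) on 19 and 14 counts against 33, 67 and 45 counts in the control mice, and the call was lost without control mouse 2 (-1.32), control mouse 4 (-1.71), dual-treated mouse 2 (-1.91) or dual-treated mouse 5 (-1.42). Among 5 further ligands and receptors outside the rule on symbols, 2 were tested. Amhr2, a type II receptor, was lower in the LPS mice (-0.85 ± 0.28, edgeR adjusted p = 0.0206), a call lost without control mouse 1 (-0.64), LPS mouse 6 (-0.73), LPS mouse 7 (-0.71) or both LPS mice (-0.42), and Amh was not called in any comparison.

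Of 17 regulators of Smads inside the cell, all tested, 10 were higher and 3 lower in the LPS mice (32.6% and 33.9% of all tested genes), or 5 and 4 when scaled by library size alone. In the dual-treated mice 1 was higher and 4 lower than in the control mice (9.13% and 7.02% of all tested genes), and 9 were lower than in the LPS mice (27.4%). Library size alone ended the LPS calls of Tgif2, Fkbp1a (0.35), Smurf1, Usp15 and Rnf111, gained Nedd4l as lower (-0.33), and gave 5 higher and 6 lower in the dual-treated than in the LPS mice. Against the control mice, the 4 lower in the dual-treated mice came to 2 without control mouse 2 or dual-treated mouse 2, and without dual-treated mouse 5 Tgif1 was gained as higher (0.59). Against the LPS mice, Fkbp1a was gained as higher without dual-treated mouse 5 (0.48). Tgif1, a corepressor of Smads, and Lemd3, an inner nuclear membrane protein that binds them, rose by 1.54 ± 0.18 and 1.14 ± 0.12 on the log2 scale in the LPS mice. Skil (SnoN), another corepressor and a TGF-beta target, was at 75.3, 91.1 and 84 CPM in the control mice, 214, 148 and 172 CPM in the LPS mice, and 69.3 and 49.6 CPM in the dual-treated mice. The LPS mice were above all others (1.09 ± 0.17, edgeR adjusted p = 2.99e-04), and the dual-treated mice were below the control mice without being called (-0.49 ± 0.19, 0.108), except with DESeq2 (-0.51) or no filter (-0.49). The second value ranged from -0.78 without dual-treated mouse 2 to -0.30 without dual-treated mouse 5. Smurf2, a ubiquitin ligase for Smads and receptors, was at 167, 199 and 196 CPM in the control mice, 80.5, 77.6 and 88.9 CPM in the LPS mice, and 89.1 and 103 CPM in the dual-treated mice. It fell in the LPS mice (-1.18 ± 0.11) and in the dual-treated mice (-0.96 ± 0.12, edgeR adjusted p = 1.32e-05 and 0.00115). Nedd4l, a ligase for Smad2 and Smad3, was lower in the dual-treated mice than in the control mice (-0.58 ± 0.11, edgeR adjusted p = 0.00631). Fkbp1a, which caps type I receptors, was at 269, 266 and 253 CPM in the control mice, 464, 417 and 349 CPM in the LPS mice, and 578 and 349.7 CPM in the dual-treated mice. Its call in the dual-treated mice (0.82 ± 0.20, edgeR adjusted p = 0.0221) was lost without control mouse 1 (0.84), control mouse 2 (0.83), control mouse 4 (0.77) or dual-treated mouse 2 (0.38).

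The 14 TGF-beta target genes examined were all tested. In the LPS mice 5 were higher and 6 lower (32.6% and 33.9% of all tested genes). In the dual-treated mice 1 was higher and 4 lower than in the control mice (9.13% and 7.02% of all tested genes). In the same mice 6 were higher and 5 lower than in the LPS mice (31.7% and 27.4% of all tested genes). Library size alone gave 3 higher and 8 lower in the LPS mice, 2 higher in the dual-treated than in the control mice, and 8 higher and 3 lower than in the LPS mice. Without dual-treated mouse 5, 2 were higher than in the control mice, and without dual-treated mouse 2, 3 were lower than in the LPS mice (Postn and Tagln lost). Tgfbi, an extracellular matrix protein, was at 60.8, 53.8 and 55.7 CPM in the control mice, 168, 202 and 153 CPM in the LPS mice, and 286 and 263 CPM in the dual-treated mice. The groups did not overlap, and the dual-treated mice were highest (2.27 ± 0.13 against the control mice and 0.65 ± 0.13 against the LPS mice, edgeR adjusted p = 2.72e-05 and 0.00213). Bhlhe40, a transcription factor, was at 55.2, 49.4 and 57.4 CPM in the control mice, 427, 317 and 324 CPM in the LPS mice, and 51.9 and 78.6 CPM in the dual-treated mice. Only the LPS mice stood out (2.72 ± 0.18, edgeR adjusted p = 2.21e-06). Of the collagen genes listed, Col1a1 and Col3a1 were lower in the LPS mice and Col1a2 was not called there. Col1a1 was at 128, 147 and 142 CPM in the control mice, 65.2, 56.3 and 60.2 CPM in the LPS mice, and 139.6 and 127 CPM in the dual-treated mice (-1.20 ± 0.10 in the LPS mice, edgeR adjusted p = 6.61e-06). Col3a1 was at 161, 199 and 181 CPM in the control mice, 145, 106 and 109 CPM in the LPS mice, and 392 and 208 CPM in the dual-treated mice. Its fall in the LPS mice (-0.59 ± 0.22, edgeR adjusted p = 0.0373) was lost without control mouse 2 (-0.52), control mouse 4 (-0.59), LPS mouse 6 (-0.50), LPS mouse 7 (-0.51) or both LPS mice (-0.31). Dual-treated and LPS mice differed in Col3a1 by 1.32 ± 0.24 (0.00123), or 0.77 without dual-treated mouse 2. Postn, a matrix protein, was lower in both treated groups (-0.63 in the LPS mice, or -0.35 and not called without LPS mice 6 and 7, and -1.36 in the dual-treated mice), as was Ltbp2, of the latent TGF-beta binding family (-1.43 and -1.12).

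Among 12 target genes of Gdf2 and Acvrl1 in endothelium, all tested, 2 were higher and 6 lower in the LPS mice (32.6% and 33.9% of all tested genes). In the dual-treated mice 5 were lower than in the control mice (7.02% of all tested genes). In the same mice 5 were higher and 5 lower than in the LPS mice (31.7% and 27.4% of all tested genes). Library size alone gave 8 lower in the LPS mice, and 3 lower in the dual-treated than in the LPS mice. Id1, Id2, Id3, Smad6, Smad7, Bmper and Eng of this list are described above. Hey1, a transcriptional repressor shared with Notch signalling, was at 134, 128 and 131 CPM in the control mice, 27.5, 25.4 and 28.4 CPM in the LPS mice, and 20.4 and 48.3 CPM in the dual-treated mice. Both treated groups were far below the control mice, and the dual-treated mice fell on either side of the LPS mice. Hey1 fell in the LPS mice (-2.27 ± 0.25, edgeR adjusted p = 3.9e-05) and in the dual-treated mice (-1.93 ± 0.29, 0.00232), the second value being -2.71 without dual-treated mouse 5. Between the treated groups it was 0.34 ± 0.27, not called, but -0.43 and called without dual-treated mouse 5, and 0.81 and called without dual-treated mouse 2. Tmem100, an endothelial membrane protein, behaved otherwise, at 236, 332 and 324 CPM in the control mice, 81.8, 106 and 101 CPM in the LPS mice, and 223 and 284 CPM in the dual-treated mice. Only the LPS mice lay below the control mice without overlap (-1.62 ± 0.17, edgeR adjusted p = 2.49e-05), and the dual-treated mice had -0.23 ± 0.18 (0.446, not called). Hes1, a repressor related to Hey1, fell in both treated groups (-1.63 in the LPS mice and -1.09 in the dual-treated mice).

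The other cell type markers give the setting of these changes, and their part in any of them was not tested. Among neutrophil, alveolar, airway, fibroblast, smooth muscle, mesothelial and cardiomyocyte markers, none was at 0 in any mouse. Neutrophil markers, led by S100a9, summed to 214, 118 and 125 CPM in the control mice, 2125, 2948 and 1843 CPM in the LPS mice, and 1715 and 2387 CPM in the dual-treated mice, with 7 of 7 higher in the LPS mice and 6 of 7 in the dual-treated mice. Alveolar type 1 markers, led by Ager, summed to 5169, 4787 and 4934 CPM in the control mice, 4037, 3276 and 2296 CPM in the LPS mice, and 2579 and 3398 CPM in the dual-treated mice, with 3 of 6 lower in the LPS mice and 2 of 6 in the dual-treated mice. Of the 7 alveolar type 2 markers, led by Sftpc, 5 were lower and 1 higher in the LPS mice, while against the control mice 0 were called in the dual-treated mice with edgeR (1 with DESeq2, and 2 at an unadjusted edgeR p under 0.05). Without control mouse 4, LPS mouse 6 or LPS mouse 7, the 5 lower alveolar type 2 markers came to 3. Without dual-treated mouse 5, the 0 against the control mice came to 1 higher (Sftpd) and 1 lower (Sftpc), and without LPS mouse 1 or LPS mouse 7 Sftpd was called higher. The 2 lower alveolar type 1 markers of the dual-treated mice came to 1 without control mouse 1, 2 or 4, LPS mouse 6 or dual-treated mouse 2, and to 4 without LPS mouse 1, LPS mouse 7 or dual-treated mouse 5. Scaled by library size alone, all 6 were lower in the LPS mice. Club and ciliated airway markers, led by Scgb1a1, were higher in the LPS mice for 4 of 6 and lower for 1 (Cyp2f2, not called without control mouse 2, control mouse 4 or LPS mouse 6), with sums of 30701, 39030 and 36309 CPM in the control mice, 67363, 57025 and 55649 CPM in the LPS mice, and 23818 and 26397 CPM in the dual-treated mice.

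Fibroblast markers, led by Pdgfra, summed to 1098, 1210 and 1136 CPM in the control mice, 994, 1101 and 1017 CPM in the LPS mice, and 1090 and 876 CPM in the dual-treated mice, with 3 of 9 higher and 3 lower in the LPS mice and 3 lower in the dual-treated mice. The 3 higher came to 1 without control mouse 4, and with library size alone 1 was higher and 5 lower. The 3 of the dual-treated mice came to 0 without control mouse 2, and to 1 without control mouse 4 or dual-treated mouse 2. Smooth muscle markers, led by Des, summed to 303, 382 and 329 CPM, 310.5, 398 and 467 CPM, and 192 and 245 CPM in the same order, with 1 of 6 higher in the LPS mice (2 without control mouse 2, and 0 with library size alone) and 2 lower in the dual-treated mice (4 without LPS mouse 1, and 1 without control mouse 2 or dual-treated mouse 2). Mesothelial markers, led by Msln, summed to 574, 473 and 508 CPM, 426, 377 and 319 CPM, and 405 and 604 CPM, with 4 of 5 lower in the LPS mice. Cardiomyocyte markers, led by Myh6, varied within the control group, at 391, 1110 and 636 CPM, against 511, 809 and 479 CPM in the LPS mice and 232 and 228 CPM in the dual-treated mice, with 1 of 7 lower in the LPS mice (2 without control mouse 1) and 5 of 7 in the dual-treated mice. The 5 came to 3 without control mouse 2, control mouse 4 or dual-treated mouse 5, and to 1 without dual-treated mouse 2. Without control mouse 2 or LPS mouse 7, 2 were called higher in the LPS mice. All 7 squamous markers and all 5 tested skeletal muscle markers were higher in the LPS mice, while against the control mice 0 of either list were called in the dual-treated mice with edgeR (0 with DESeq2, and 0 at an unadjusted edgeR p under 0.05). Without LPS mouse 6 or LPS mouse 7, only 2 squamous and 3 skeletal muscle markers were still tested, all of them called higher. The other markers of these lists had enough counts to be tested only through LPS mice 6 and 7, where they were high. No conclusion on the LPS group is drawn from their calls. Without LPS mouse 1, Krt6a was called higher and Tnnt3 lower in the dual-treated mice than in the control mice. Between lists, Col1a1 and Col1a2 counted both as fibroblast markers and as TGF-beta targets, and Acta2 and Tagln both as smooth muscle markers and as TGF-beta targets, while Skil and Pmepa1 were on the lists of Smad regulators and of TGF-beta targets and Ltbp2 on those of ligand regulators and of TGF-beta targets.

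Some members overlap other genes, and since the strand setting of the counting was not given in the sources used here, reads in shared exons cannot be told apart. All exon bases of Gdf1 lie in exons of Cers1 on the same strand. For Bmp8b 56.9% of exon bases lie opposite Ppie, for Gdf7 35.7% opposite Ldah, for Acvr2a 30.5% opposite Orc4 and for Inha 16.5% opposite Obsl1. For Tgfbr3l 51.8% are shared with Gm49320 on the same strand, for Bmp5 46.6% lie opposite the non-coding Gm26903, for Gdf5 40.3% opposite Gm15557 and for Bmp4 22.5% opposite the non-coding Gm15222.

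The promoters of the members were searched for short sequences known to bind Smads. The 250 bases before the start of each of 21627 protein-coding genes on GRCm39 were read on both strands. GGCGCC, the GC motif of the BMP Smads, was in 11 of the 56 member promoters (19.6%) and in 2016 of all promoters (9.32%). The motif holds only G and C. These 11 windows were 49.2% (Gdf1) to 78.4% (Acvr1b) G and C, and that content was not matched between members and all promoters. Of these 11, Gdf1 was not tested. In the LPS mice 5 were called higher (Acvr1b, Bmpr1a, Tgfbr1, Smad2 and Smad4), beside 32.6% of all tested genes. Of these, Bmpr1a turned downward and Tgfbr1 and Smad4 lost their calls with library size alone. Another 3 were lower (Bmpr2, Smad9 and Id4), beside 33.9% of all tested genes. In the dual-treated mice 4 were lower than in the control mice (7.02% of all tested genes). Against the LPS mice 1 was higher (31.7%) and 6 lower (27.4%), of which Acvr1, Acvr1b, Tgfbr1 and Smad4 lost their calls with library size alone. GTCTG, the Smad element, was in 23 of the 56 (41.1%) and in 8956 of all (41.4%), and its palindrome GTCTAGAC in 1 of the 56 (1.79%) and in 52 of all (0.24%). The 8 members called lower than the control mice in both treated groups were Tgfb3, Bmp4, Bmp5, Gdf10, Bmpr2, Smad9, Smad7 and Id4, of which Bmp5, Gdf10, Smad9 and Id4 lost a call when single mice were left out, as given with each gene. They were 16.7% of the 48 tested members, beside 898 (4.84%) of all tested genes, in comparisons that share the control mice. The shares lower in each comparison, multiplied, would give 9.55% of the members and 2.38% of all tested genes. Of the 8, Bmpr2, Smad9 and Id4 held GGCGCC. A match describes the letters in this window and is neither a proven site nor a cause. The window of Bmpr2 lies wholly in exons of another transcript and is not shown. Those of the other 2 are printed because they join a BMP Smad and an Id gene, and the capitals mark GGCGCC. The Smad9 window lies at chr3:54662713-54662962 on the plus strand, outside annotated exons, with its match ending 6 bases before the start, and the Id4 window at chr13:48414308-48414557 on the plus strand, with 4 bases in an exon and its match ending 109 bases before the start.
Smad9: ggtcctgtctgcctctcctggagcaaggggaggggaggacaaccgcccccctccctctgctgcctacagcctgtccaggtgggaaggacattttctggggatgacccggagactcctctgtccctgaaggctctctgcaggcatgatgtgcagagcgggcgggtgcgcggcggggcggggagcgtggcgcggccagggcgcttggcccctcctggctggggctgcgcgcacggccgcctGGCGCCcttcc
Id4: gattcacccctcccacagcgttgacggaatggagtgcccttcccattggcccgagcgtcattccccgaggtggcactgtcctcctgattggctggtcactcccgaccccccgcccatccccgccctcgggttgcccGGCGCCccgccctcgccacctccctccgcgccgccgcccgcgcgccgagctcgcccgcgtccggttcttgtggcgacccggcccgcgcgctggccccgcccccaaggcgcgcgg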

How the data were processed

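RNA from the lungs of 8 mice was measured by sequencing. The authors checked reads with FastQC 0.11.9, trimmed them with Trim Galore, aligned them with HISAT2 2.2.1 and deposited raw gene counts made with featureCounts 2.0.1, 1 file per mouse. The strand setting, the handling of reads with several alignments and the annotation release were not given in the sources used here. Gene identifiers were matched to symbols with GENCODE mouse release 39 on GRCm39. Of 55416 identifiers 667 had no match and held 0.0533% of the counts.

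The 3 groups (3 control, 3 LPS and 2 dual-treated mice) were fitted together with edgeR 4.0.16 in R 4.3.3: filterByExpr, TMM scaling, a quasi-likelihood F test with 5 residual degrees of freedom, and Benjamini-Hochberg adjustment over 18560 genes, called at an adjusted p under 0.05. CPM are TMM-scaled counts per library, and levels per kb divide them by exon length. At 19061949 to 20908608 counts per library, 3 counts are 0.132 to 0.178 CPM. The pipeline was tested on simulated data with known changes. Alternatives were other scalings (library size only, RLE, upper quartile), DESeq2 1.42.0, other filters, the 2 compared groups alone, calls that also ask for a fold over 2, and leaving out each mouse in turn. Leaving out LPS mice 6 and 7 together was chosen after seeing the data.

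The members and the lists were chosen with earlier results of these data known. Besides the members, the lists were secreted antagonists and regulators of ligands, coreceptors and membrane regulators (12 listed, Tdgf1 unmatched), further ligands and receptors, cytoplasmic and nuclear Smad regulators, TGF-beta targets, targets of Gdf2 and Acvrl1, and markers of 14 cell types. A further 2 list genes are not reported here. Members given with every mouse were 26 of wide interest, those among the 5 highest or 5 lowest called values of a comparison at a mean of at least 1 CPM, and the most abundant of each role per kb, 32 in all. Other list genes named are the 2 highest or 2 lowest called of their list, or partners of a member. Further genes given with values, such as Inha, Bmp5, Acvr1b, Acvr1c, Itgb8 and Hes1, were chosen after the values were seen. The paper's methods give 3 sequenced mice per group, while a figure legend of the paper and the labels give 2 dual-treated mice, and the labels were followed.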

Additional observations from a re-analysis of the deposited data

How the results depend on the processing

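Scaling by library size alone changed the most single results, 38 of 237. It turned the log2 fold change in the LPS mice against the control mice of Bmpr1a to -0.037 and of Smad3 to -0.036, and that of Smad3 in the dual-treated mice against the LPS mice to 0.0024, none of them called. With it, 13 members were higher and 22 lower in the LPS mice against the control mice (18 and 20 with TMM), and 19 were higher and 14 lower in the dual-treated mice against the LPS mice (12 and 21 with TMM). Over all tested genes it gave 4336 higher and 7832 lower in the LPS mice against the control mice (6046 and 6300 with TMM).

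With no filter, 2 members were higher in the dual-treated mice than in the control mice, Gdf3 being added. Asking also for a fold over 2 gave 10 members higher and 14 lower in the LPS mice against the control mice with either p. In the dual-treated mice against the control mice it gave 1 higher (Bmp8a, with Tgfb1 lost) and 6 lower (Gdf6 gained) at an unadjusted p under 0.05. Bmp8a had enough counts to be tested only through the LPS mice and Gdf6 only through the control mice, so neither is used as support. At an adjusted p under 0.05 the same rule gave 0 higher and 5 lower. Against the LPS mice 10 were lower with either p.

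Leaving out each mouse in turn gave 15 to 19 members higher and 17 to 20 lower in the LPS mice against the control mice. The dual-treated mice had 0 to 3 higher and 6 to 14 lower against the control mice, and 12 to 13 higher and 19 to 21 lower against the LPS mice. In the dual-treated mice against the LPS mice, Hey1 ranged from -0.43 without dual-treated mouse 5 to 0.81 without dual-treated mouse 2. The largest count of higher members in the dual-treated mice against the control mice includes Gdf3. It was tested there only through dual-treated mouse 2, where it was high. A lone dual-treated or LPS mouse was assumed to vary like the other groups. Without LPS mice 6 and 7, chosen after seeing the data, Id3 in the remaining LPS mouse against the control mice was 0.44. The cause was not tested.

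Over the scalings, DESeq2, filters, fits and left-out mice, calls and directions held for Tgfb3, Bmp2, Bmp6, Bmpr2, Smad7 and Wfikkn1 in the comparisons where they were called, and for Tgfbr2 and Smad1 likewise. Asking also for a fold over 2 ended the calls of Bmp2 in both treated groups against the control mice. It also ended those of Bmpr2 and Smad7 in the dual-treated mice against either other group, and that of Tgfbr2 in the dual-treated mice against the LPS mice. No paired analysis was possible because control and LPS mice share only number 1, control and dual-treated mice only number 2, and LPS and dual-treated mice none. With 2 dual-treated mice and no group given YW3-56 alone, effects of the inhibitor without LPS were not measured, and shifts in cell numbers cannot be told apart from shifts in RNA per cell.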
